A study of Mus musculus with 4 samples.

Results

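Spots of mouse brain sections that carried an excess of deep-layer cortical transcripts were compared with the remaining spots of the same sections. A spot is a small barcoded area of a Visium slide that captures the mRNA of the tissue above it and can hold several cells of different types, or part of one. A spot with at least 500 unique molecular identifiers (UMIs, each counting 1 captured mRNA molecule) was called a deep-layer spot when it met 3 conditions. Its UMIs of 8 rule genes (Fezf2, Tle4, Foxp2, Tbr1, Hs3st4, Rprm, Crym and Sulf1) exceeded the number that its total predicted by at least 3 times the square root of that number. At least 4 of the 8 genes were detected in it, and it held at least 3 UMIs of Slc17a7, the vesicular glutamate transporter of cortical excitatory neurons. These conditions were met by 282 of 7620 spots, and the number per section was 64 of 1537, 70 of 2358, 60 of 2294 and 88 of 1431 in sections 1 to 4.

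Neurons of cortical layer 6 form the deepest cell layers of the neocortex. Many of them are corticothalamic neurons, which project to the thalamus and depend on transcription factors such as TBR1 and FEZF2 for their identity. Below them lies layer 6b, a thin sheet of neurons beside the white matter that derives from the subplate of the developing cortex, and above them lie the large subcortically projecting neurons of layer 5 and the intracortical neurons of layers 2 to 4.

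All 4 sections were 10-µm fresh frozen brain sections of Nf1+/- mice, which carry 1 inactivated copy of Nf1 in every cell. Nf1 encodes neurofibromin, a protein that switches RAS off. The labels give neither the age of these mice nor whether the 4 sections came from 4 animals, so n counts sections. The p-values measure how the difference between spot groups of the same section varied over these sections. No wild-type section was used here, so every value describes Nf1+/- tissue and none describes an effect of the genotype.

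The spots used held 19261103 to 37001945 UMIs per section. The median deep-layer spot held 19847, 14567, 9523 and 14858 UMIs in sections 1 to 4, and the median other spot 14649, 15317, 8812.5 and 12016, so that deep-layer spots were the deeper ones in sections 1, 3 and 4. The share of spots that met the rule was 4.16% (95% exact binomial interval 3.22 to 5.29%), 2.97% (2.32 to 3.74%), 2.62% (2.00 to 3.35%) and 6.15% (4.96 to 7.52%). These intervals cover counting error only, and the share also depends on which part of the brain each section held. It depends on spot depth too, because the rule asks for detected genes and a fixed number of Slc17a7 UMIs. A further 11, 23, 45 and 2 spots in sections 1 to 4 met the score with under 4 of the 8 genes detected. Among spots thinned to 5000 UMIs, 24, 30, 20 and 32 met the rule. Slides carry a fixed set of barcodes, and pairs of sections shared 427 to 1989 spot barcodes. Gene by gene, the UMIs of the summed deep-layer spots differed between sections by more than counting noise. Chi-square divided by its degrees of freedom was 2.29 to 3.19 over all pairs, and 14.4 to 57.6 for the other spots. This statistic grows with the UMIs summed, and the other spots held far more, so the ranges do not compare the spread of the groups. Because sections differed by more than counting noise, each section was counted once.

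The rule genes chose the spots and are given as a description. Rprm, a cell-cycle inhibitor gene used as a layer 6 marker, was found in 267 of the 282 deep-layer spots and Tbr1, the layer 6 transcription factor, in 265. Hs3st4, a heparan sulfate sulfotransferase gene, was found in 238, Crym, which encodes the thyroid hormone-binding protein mu-crystallin, in 236 and Tle4, a corepressor gene of corticothalamic neurons, in 217. Fezf2, Foxp2 and the extracellular sulfatase gene Sulf1 were found in 154, 116 and 110 spots, so fewer spots rested on them. All 8 genes were detected in 20 spots and only the minimum of 4 in 55.

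Levels are given in CPM, the UMIs of a gene in the summed spots scaled to a total of 1000000. Rprm stood at 365, 270, 463 and 248 in the deep-layer spots of sections 1 to 4 and at 58.5, 35.3, 40.6 and 38.4 in the other spots. Tbr1 stood at 232, 218, 240 and 282 CPM against 48.8, 69.2, 71.5 and 87.5. Neither gene overlapped between the groups. Crym was the exception among the 8, with 235, 364, 138 and 137 CPM in deep-layer spots and 167, 174, 139 and 38.2 CPM in the others, so that in section 3 both groups held the same level. The plot of the rule genes shows these levels for every section.

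**Figure D1:**
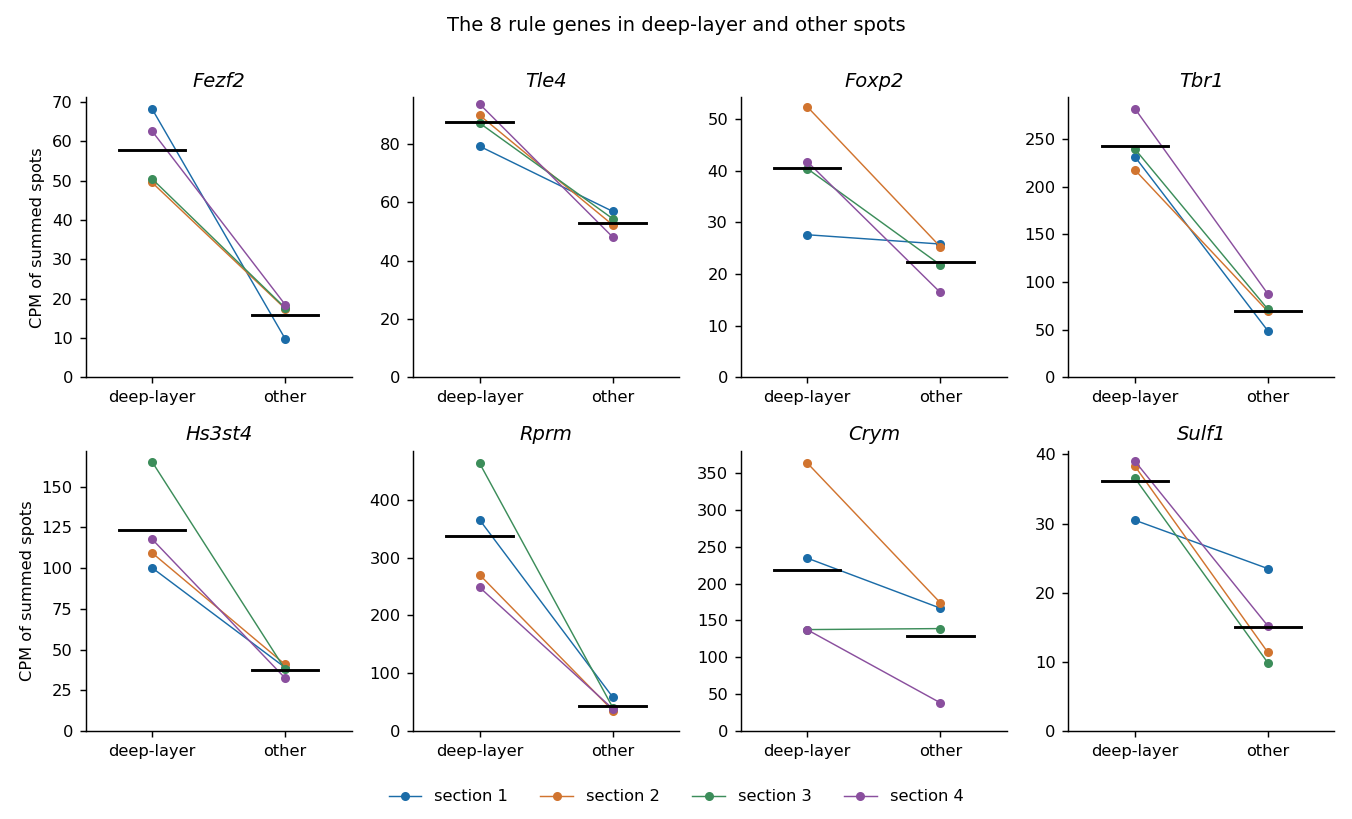
CPM of the 8 rule genes (vertical axes) in the summed deep-layer and other spots of each section (points, joined within a section), with black bars for the mean of the 4 sections. All genes except Crym separate the groups, which follows from the rule, and Foxp2 does so by little in section 1 (27.6 against 25.8 CPM).

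The scores of deep-layer spots ran from 3.01 to 10.5, with medians of 4.07, 4.15, 4.07 and 4.30 in sections 1 to 4. Just inside the threshold, 62 spots with scores of 3 to 3.5 had a median of 14694.5 UMIs and 15 rule-gene UMIs. Just outside it, 82 spots with scores of 2.5 to 3 that met the other conditions had medians of 13020 and 12. The condition on Slc17a7 also mattered, because 18, 42, 11 and 3 further spots in sections 1 to 4 met the score and the detection condition but held under 3 UMIs of it. Per 10000 UMIs these spots held 52.4, 63.4, 63.9 and 49.7 UMIs of 10 markers of striatal projection neurons, the inhibitory output neurons of the striatum, against 13.3, 28.7, 11.9 and 5.29 in the deep-layer spots. Section 2 thus carried the most striatal RNA among its deep-layer spots, and 15 of its 70 deep-layer spots had a striatal marker score of at least 3, against 2, 2 and 0 in sections 1, 3 and 4. Spots with such a score were left out of both groups in an alternative. Its values are given beside the striatal genes and the other named genes that it moved most. The score reads the same 10 markers, so for these genes the alternative picks spots by the values it compares.

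For the test, each section gave 1 sum of UMIs for its deep-layer spots and 1 for the rest. The 8 sums entered edgeR's quasi-likelihood test, in which the section was a block. Adjusted p-values are by the Benjamini-Hochberg method over all genes tested, and a gene with an adjusted p under 0.05 is called higher or lower. The rule genes and Slc17a7 were left out. Of 14031 genes, 726 were higher and 743 lower in deep-layer spots, 10.5% in all (5.17% higher and 5.30% lower). With scaling to total UMIs in place of TMM scaling, 1092 were higher and 557 lower, which moved the share of higher calls from 49.4% to 66.2%. Without section 1 the counts were 423 and 375, and without section 3 they were 416 and 403. The spots were picked by their own counts, so that a gene that varies with the rule genes from spot to spot had to differ between these groups. The calls describe which genes these are. A lower value in a spot can come from fewer cells of a type or from less RNA per cell, which cannot be told apart here.

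Genes listed for layer 6 corticothalamic neurons stood, as a list, above the other spots. Of 10 such genes outside the rule, 6 were higher and 0 lower, with a median log2 fold change of 0.94 against −0.017 over all genes tested. The same number, 6, was called without any 1 of the 4 sections. The summed level of the 10 genes was 287, 261, 290 and 316 CPM in the deep-layer spots of sections 1 to 4 and 125, 145, 147 and 138 CPM in the others.

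Nxph3 (chromosome 11, 95509845 to 95514565 in GRCm38.p6, the assembly behind mm10) encodes neurexophilin-3, a secreted ligand of alpha-neurexins at synapses. It was counted at 58.1, 45.8, 42.9 and 66.7 CPM in deep-layer spots and at 10.9, 11.1, 12.1 and 9.90 CPM in other spots. The lowest deep-layer value was above the highest other value, and the log2 fold change was 2.24 (standard error 0.15, edgeR adjusted p = 1.82e-07). Sla (chromosome 15, 66780819 to 66831829), the gene of a Src-like adaptor protein, stood at 24.7, 16.8, 22.7 and 15.5 CPM against 4.03, 3.84, 2.92 and 3.21, again without overlap (log2 fold change 2.41, standard error 0.22, edgeR adjusted p = 3.19e-06). In the annotation Sla overlaps Tg, the thyroglobulin gene.

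Chrna5 (chromosome 9, 54980827 to 55011420), which encodes the accessory alpha-5 subunit of nicotinic acetylcholine receptors, was scarce but regular. In the annotation it overlaps Chrna3. Deep-layer spots held it at 6.54, 6.54, 5.05 and 5.39 CPM, from 28 UMIs in all, and other spots at 0.724, 1.03, 1.18 and 0.844 CPM. The groups did not overlap (log2 fold change 2.61, standard error 0.39, edgeR adjusted p = 0.000309). Zfpm2, a cofactor of GATA transcription factors, stood at 19.6, 21.5, 37.9 and 21.5 CPM against 6.02, 7.88, 7.40 and 6.30 (log2 fold change 1.75, edgeR adjusted p = 1.65e-05). The other members called were Garnl3, with a Rap GTPase-activating domain (log2 fold change 0.93), and the kainate receptor subunit gene Grik3 (0.84). Ntsr1, the neurotensin receptor gene whose promoter drives a widely used corticothalamic Cre line, had no overlap between groups but only 27 UMIs in deep-layer spots, and it missed the threshold (log2 fold change 0.95, standard error 0.33, edgeR adjusted p = 0.0786). Sox5 stood at 0.50 (edgeR adjusted p = 0.0812) and Syt6 at −0.25 (edgeR adjusted p = 0.350).

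Several of the largest rises were outside this list. Prss35 (chromosome 9, 86743240 to 86758443), which encodes a secreted protein of the serine protease family, was at 6.54, 5.61, 10.1 and 12.1 CPM in deep-layer spots and at 1.27, 0.807, 0.613 and 0.900 CPM elsewhere, from 41 UMIs in deep-layer spots. Its log2 fold change of 3.12 (standard error 0.38, edgeR adjusted p = 5.35e-05) was the largest among called genes with at least 100 UMIs and the same direction in all sections. Arhgap25, a GTPase-activating protein gene, stood at 18.9, 17.8, 24.0 and 18.2 CPM against 3.89, 4.84, 3.96 and 3.54 (log2 fold change 2.19, edgeR adjusted p = 5.16e-06). Neither gene overlapped between the groups. Trbc2, annotated as a constant region gene of the T cell receptor beta chain, had many more UMIs, at 102, 79.5, 116 and 174 CPM against 20.6, 24.6, 31.0 and 38.2 (log2 fold change 1.97, standard error 0.10, edgeR adjusted p = 1.17e-08). The annotation places Trbc2 inside the Tcrb locus, so its count is uncertain where reads also fit other segments of that locus. Krt80, Myh3, Sebox, Twist2, Ccn4, Ly6d, Urah, Tnmd and Podn completed the 15 largest rises. Of these, Krt80 overlapped between groups, with 2.90, 11.2, 17.7 and 9.43 CPM against 1.13, 1.47, 1.32 and 3.04. Podn, Tnmd, Twist2 and Ccn4 rested on 16, 21, 23 and 27 UMIs in deep-layer spots. Krt80 was called in 15 of 15 alternatives, Twist2 and Ccn4 in 13, Tnmd in 12 and Podn in 9.

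Layer 6b genes were higher too. Of 4 markers, 3 were called higher and 0 lower (median log2 fold change 1.20), and 2 remained without any 1 section. Ccn2, a matricellular protein gene, was at 60.3, 26.2, 31.5 and 73.4 CPM in deep-layer spots and at 23.3, 17.1, 18.0 and 19.6 CPM in others (log2 fold change 1.24, edgeR adjusted p = 0.00015). Cplx3, a complexin gene of the release machinery, and Nxph4, a neurexophilin gene, had log2 fold changes of 1.21 and 1.20. For Ccn2, sections 1 and 4 were about as high as each other and well above sections 2 and 3, but all 4 lay above the other spots.

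General genes of cortical excitatory neurons were higher for 6 of 10 members, lower for 0, with a median log2 fold change of 0.65. The condition on Slc17a7 favours such genes. Nptx1, a neuronal pentraxin gene, stood at 297, 256, 266 and 280 CPM against 75.7, 115, 93.0 and 107 (log2 fold change 1.44, edgeR adjusted p = 1.88e-07). The bHLH transcription factor genes Neurod2 (1.25) and Neurod6 (1.12) were among the others. Without section 1, 3 members were higher and 1 lower. Of the claustrum and endopiriform markers, which belong to neighbouring structures of the deep cortex, 3 of 6 tested were higher. Nr4a2, a nuclear receptor gene of the claustrum, the endopiriform nucleus and layer 6b, stood at 36.3, 34.6 and 48.0 CPM in sections 1 to 3 but at 154 CPM in section 4, against 18.8, 16.8, 25.4 and 30.5 (log2 fold change 1.43, edgeR adjusted p = 0.000184). Gng2 and Gnb4, which encode G protein subunits, had log2 fold changes of 0.68 and 0.54.

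Layer 5 genes did not follow the layer 6 genes. Of 10, 0 were higher and 1, Pcp4, was lower (median log2 fold change −0.18). Pcp4 encodes a calmodulin-binding peptide and is abundant in layer 5 and in the striatum. It was at 2004, 2670, 2723 and 2575 CPM in deep-layer spots and 2680, 2658, 3001 and 2834 CPM in others, with overlap (log2 fold change −0.24, edgeR adjusted p = 0.0204). Its sign changed in the alternative without striatal-score spots. That alternative left out 2, 15, 2 and 0 deep-layer spots and 435, 753, 612 and 314 other spots in sections 1 to 4. The part of either group was not tested. With spots of striatal score 3 or more left out, Pcp4 was higher in deep-layer spots (log2 fold change 0.57, edgeR adjusted p = 4.70e-06), as was Bcl11b, the CTIP2 transcription factor gene (0.63 against −0.08 with all spots). Upper-layer markers were higher for 0 of 8 and lower for 3: Lamp5 (−0.74), Rorb (−0.66) and Cux1 (−0.35). Without section 4, 1 of them was called, and Pcp4 was not called without section 1, 3 or 4.

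**Figure D2:**
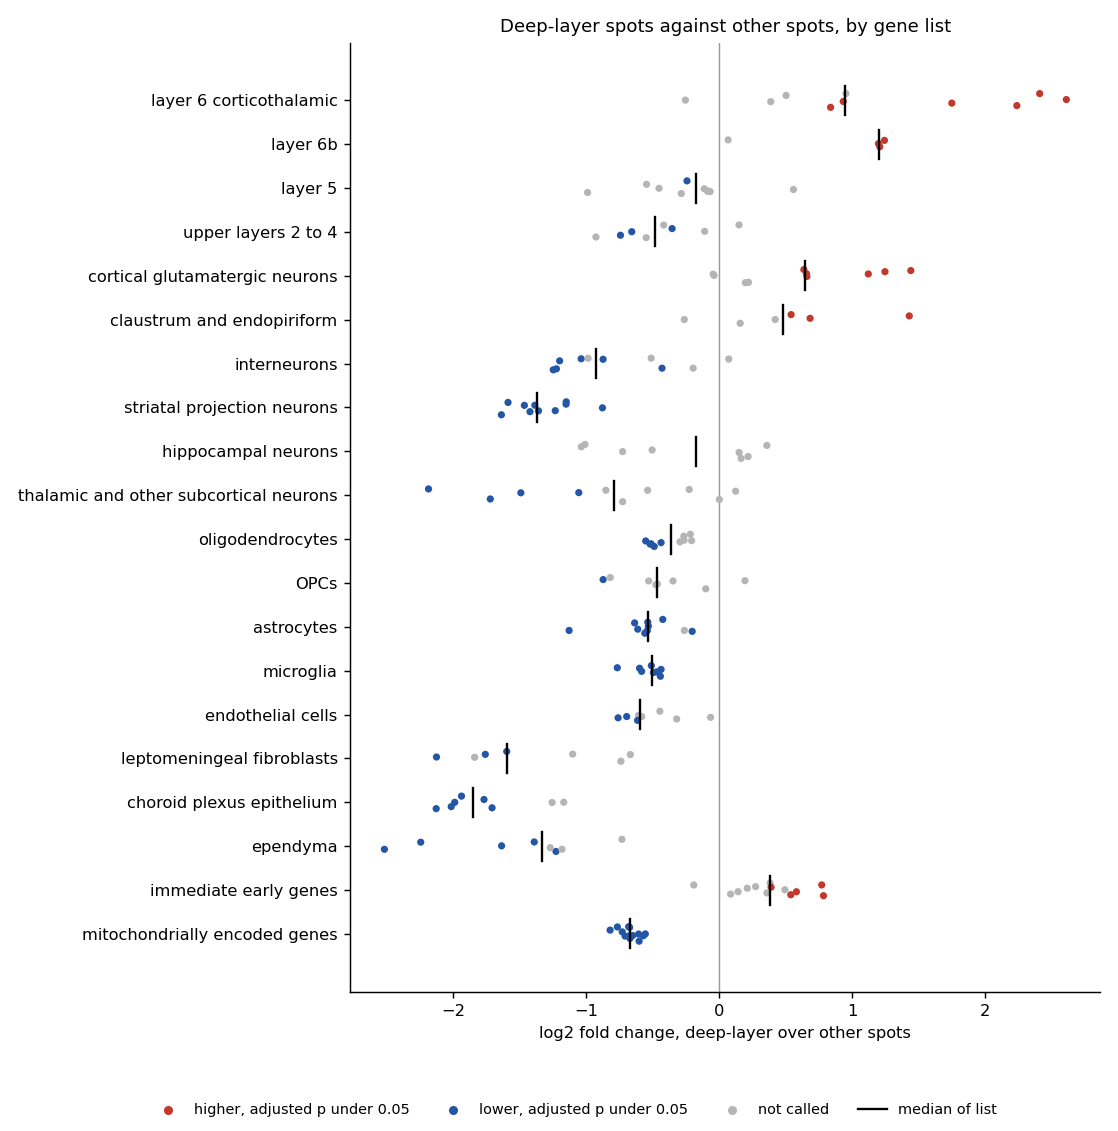
Log2 fold change of deep-layer over other spots (horizontal axis) for every tested gene of 20 fixed lists, 1 point a gene, coloured by the edgeR call, with a black bar at the median of each list. Layer 6 corticothalamic and layer 6b genes lie farthest to the right, all 13 mitochondrially encoded genes lie left of 0, and the 10 striatal genes lie between −1.64 and −0.88.

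Markers of striatal projection neurons were lower for 10 of 10 members, with a median log2 fold change of −1.37. Their summed level was 1329, 2870, 1192 and 529 CPM in the deep-layer spots of sections 1 to 4 and 3377, 3464, 3341 and 2640 CPM in the other spots, so the groups overlapped through section 2, which was above the other spots of section 4. Adora2a, an adenosine receptor gene of indirect-pathway neurons, stood at 15.2, 54.2, 25.2 and 14.1 CPM against 81.0, 74.6, 75.4 and 73.2 (log2 fold change −1.64, edgeR adjusted p = 0.000156), and Penk, the proenkephalin gene, at 420, 1121, 439 and 152 CPM against 1144, 1157, 1226 and 882 (−1.39, edgeR adjusted p = 0.000907). Adora2a did not overlap and Penk did, through section 2. With spots of striatal score 3 or more left out, 2 of the 10 were lower (median −0.27). Neither Adora2a (−0.27, edgeR adjusted p = 0.550) nor Penk (−0.17, edgeR adjusted p = 0.143) was then called. The score was computed from these same 10 genes, so these values describe the spots that remained and are no independent test. All spots included, edgeR's robust estimate called 0 of 10 at the same median of −1.37.

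Inhibitory neuron genes were lower for 6 of 10 and higher for 0 (median log2 fold change −0.93). Gad1, which encodes a GABA-synthesising enzyme, stood at 174, 209, 134 and 144 CPM in deep-layer spots and 375, 366, 397 and 336 CPM in others, without overlap (log2 fold change −1.22, standard error 0.10, edgeR adjusted p = 5.07e-07). Gad2 (−1.04), the vesicular GABA transporter gene Slc32a1 (−1.20) and Pvalb (−0.87), which encodes parvalbumin, were also lower. Without the striatal-score spots Gad1 was at −1.26, Gad2 at −1.08 and Pvalb at −1.13, all called. These genes are shared with striatal projection neurons, except Pvalb. Of 10 genes of thalamic and other subcortical neurons, 4 were lower, among them the protein kinase gene Prkcd (−2.19) and the transcription factor gene Zic1 (−1.72). Of 8 hippocampal genes tested, 0 were called in either direction.

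Glial genes were lower as well, by less. Astrocyte genes were lower for 9 of 10 (median log2 fold change −0.54), and the glutamate transporter gene Slc1a3 stood at 169, 214, 193 and 184 CPM against 260, 270, 271 and 245 (−0.53, edgeR adjusted p = 0.00016). Microglial genes were lower for 8 of 8 (median −0.50, range −0.77 to −0.44), with P2ry12, a purinergic receptor gene, at 26.9, 30.9, 27.8 and 33.7 CPM against 35.9, 41.6, 41.5 and 37.6. Neither gene overlapped between the groups. P2ry12 was called in 6 of 16 alternatives, and not without the striatal-score spots (−0.36, edgeR adjusted p = 0.0855). Without section 1 or 2, 5 of the microglial genes were called, and without section 3, 4. Of the astrocyte genes, 6 or 7 were called without any 1 section. Oligodendrocyte genes were lower for 5 of 10 (median −0.37), with 3 without section 1 or 3 and 8 without section 2, and 0 of 10 were called when each deep-layer spot was set against other spots of like total UMIs, where the median was 0.05. Of 8 genes of oligodendrocyte progenitor cells, the cells the study is about, 1 was lower, beside 5.3% lower over all genes tested. This was Cacng4 (−0.87), which encodes an AMPA receptor-associated subunit. Without the striatal-score spots Cacng4 was not called (−0.55, edgeR adjusted p = 0.0899). The summed level of these 8 genes was 74.8, 108, 83.3 and 149 CPM in deep-layer spots and 136, 117, 112 and 137 CPM in others, so section 4 ran the other way.

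Genes of the ventricles, the brain surface and vessels were lower too. Markers of choroid plexus epithelium were lower for 6 of 8 tested (median log2 fold change −1.85), of ependyma for 5 of 8 (−1.33), of leptomeningeal fibroblasts for 3 of 7 (−1.60) and of endothelial cells for 3 of 8 (−0.59). Without section 1, in which choroid plexus RNA was most abundant, 2 of the 8 choroid plexus genes and 2 of the 8 ependymal genes were called, and without section 3 or 4, 3 of the ependymal genes. Among the 15 largest falls, Galnt12 and Cyp2a5 had 0 UMIs in all deep-layer spots and 156 and 159 in the others. The counting interval of their ratio reached up to 0.491 and 0.482. At an assumed floor of 3 UMIs over the 4 sections they would be 2.53-fold and 2.58-fold lower. Galnt12 was called in 6 of 13 alternatives and Cyp2a5 in 5 of 12. Barx2, a homeobox gene, had 1 UMI in deep-layer spots and 289 in the others, a ratio of 0.0711 with a counting interval of 0.00179 to 0.399. Igfbpl1, expressed by young neurons, had 2 UMIs and 488, a ratio of 0.0842 (0.0102 to 0.306). Galnt12, Cyp2a5, Barx2 and Igfbpl1 met the filters on counts almost wholly through UMIs of the other spots. Their rank among the falls therefore partly reflects these filters. With so few deep-layer UMIs, the size of each fall is known only within its counting interval.

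All 13 mitochondrially encoded genes were lower in deep-layer spots (median log2 fold change −0.67, range −0.82 to −0.56). They made up 10.5%, 11%, 8.88% and 10.7% of UMIs in the deep-layer spots of sections 1 to 4 and 15.9%, 14.4%, 13.9% and 15.6% in the other spots. The groups did not overlap for any of the 13, a count not set beside the share over all genes. The 13 calls were the same in number without any 1 section, with comparison spots of like total UMIs, and with striatal spots left out. Against other spots with Slc17a7, 12 of 13 were lower (median −0.56). The largest single share belonged to mt-Co1, a cytochrome c oxidase subunit gene, at 19534, 19263, 15968 and 19139 CPM against 28136, 25296, 24353 and 26643 (log2 fold change −0.57, edgeR adjusted p = 5.07e-07).

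Activity-regulated immediate early genes were higher for 5 of 13 and lower for 0 (median log2 fold change 0.38). Fos was at 36.3, 52.4, 109 and 95.6 CPM in deep-layer spots and 16.3, 39.6, 49.5 and 57.5 CPM in others (log2 fold change 0.77, edgeR adjusted p = 0.000451), and Egr1 at 331, 295, 435 and 419 CPM against 155, 271, 295 and 271 (0.54, edgeR adjusted p = 0.00222). Fos overlapped between groups, because section 1 was low in both, and Egr1 did not. Arc (0.58) and Fosb (0.78) were also higher. Without section 1, 3 or 4, 3 were called, and with the section not used as a block, 0. In the comparisons described below the list moved less. Against other Slc17a7 spots, 2 of 13 were higher and 0 lower (median 0.18). Against upper-layer spots, 1 of 13 was higher and 0 lower (median 0.021).

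Among 8 genes of RAS GTPase-activating proteins, the family of neurofibromin, 1 was called, beside 10.5% over all genes tested. The count is thus near that share and says little about the family. Rasal1 stood at 78.4, 83.2, 79.5 and 87.5 CPM in deep-layer spots and 33.1, 41.9, 29.97 and 32.5 CPM in the others, with no overlap and little spread (log2 fold change 1.19, standard error 0.10, edgeR adjusted p = 1.29e-06). Nf1 itself was at 8.71, 2.80, 7.57 and 8.08 CPM against 7.78, 5.15, 6.03 and 5.96, from 33 UMIs in deep-layer spots. The groups overlapped (log2 fold change 0.06, standard error 0.27, edgeR adjusted p = 0.936), and the standard error leaves small differences out of reach at this depth.

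Most receptor and channel genes were not called, beside 5.17% higher and 5.30% lower over all genes tested. Of 27 neuromodulator receptor genes tested, 6 were higher and 4 lower (median log2 fold change 0.08). Chrna5 is described above, and the nicotinic alpha-4 subunit gene Chrna4 was at 23.2, 14.96, 30.3 and 43.8 CPM against 11.2, 13.5, 14.3 and 15.1 (log2 fold change 0.99, edgeR adjusted p = 0.0023). The alpha-1B adrenergic receptor gene Adra1b stood at 25.4, 24.3, 30.3 and 31.6 CPM against 9.59, 12.4, 12.4 and 10.4 (1.26, edgeR adjusted p = 7.51e-05). The muscarinic receptor gene Chrm3 (0.73) was higher, and the cannabinoid receptor gene Cnr1 (−0.87) and the serotonin receptor gene Htr1b (−0.84) were lower. Without the striatal-score spots neither of the latter was called (−0.24 and −0.34). Adra1b did not overlap between groups and Chrna4 did, because its deep-layer value in section 2 lay within the range of the others.

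Potassium channel genes were higher for 10 of 46 and lower for 4, with Kcnn1 (0.81) and Kcnf1 (0.80) among the higher and the beta subunit genes Kcnab3 (−1.03) and Kcnab1 (−0.96) the lowest. GABA-A receptor subunit genes were higher for 2 of 12, among them Gabra5 (0.77), and lower for 4, among them Gabrg1 (−0.74). Ionotropic glutamate receptor genes were higher for 2 of 17, Grik3 and Gria3 (0.47), and lower for 1, Grin2c (−0.56), and metabotropic ones higher for 1 of 7, Grm8 (0.72), and lower for 2, among them Grm4 (−0.65). Of 41 axon guidance genes, mostly of semaphorins, plexins, ephrins and Eph receptors, 10 were higher, among them Epha3 (1.17), Sema5a (1.03) and Sema5b (0.99), and 4 lower, among them Sema3c (−1.12). Of 33 transcription factor genes with known laminar patterns, 11 were higher, among them Lmo3 (0.72), and 6 lower, among them Foxp1 (−0.66) and Lhx2 (−0.65). Without the striatal-score spots Kcnab1 was at −0.33 and still called, and Foxp1 (−0.35), Grm4 (−0.34) and Epha3 (0.99, edgeR adjusted p = 0.0580) were not called. Lmo3 was at 233, 202 and 255 CPM in sections 1 to 3 and at 84.2 CPM in section 4, where it lay below the 96.4 CPM of the other spots.

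The other spots include white matter, striatum and other regions with few excitatory neurons. To set deep-layer spots against other tissue with Slc17a7 RNA, they were compared with the 3243 remaining spots that held at least 3 UMIs of it (467, 1240, 879 and 657 in sections 1 to 4). This condition does not limit the group to cortex. The 10 striatal markers summed to 2259, 1943, 1088 and 1406 CPM in these spots of sections 1 to 4. Both comparisons share the deep-layer spots. Of 12707 genes, 252 were higher and 293 lower, 4.29% in all (1.98% higher and 2.31% lower), and with scaling to total UMIs 388 were higher and 210 lower, which moved the share of higher calls from 46.2% to 64.9%. Without section 3 the counts were 127 and 150. Of 9 layer 6 corticothalamic genes tested, 6 were higher (median log2 fold change 0.87, against 0.00056 over all genes tested).

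Nxph3 was at 19.6, 14.8, 19.5 and 12.8 CPM in these spots, below every deep-layer value (log2 fold change 1.67, standard error 0.16, edgeR adjusted p = 1.63e-06). Sla was at 4.77, 3.70, 3.86 and 3.24 CPM (2.27, edgeR adjusted p = 1.74e-06) and Rasal1 at 45.4, 49.4, 36.7 and 40.3 CPM (0.88, edgeR adjusted p = 1.45e-05), neither with overlap. Prss35 (2.52), Chrna5 (1.89), Zfpm2 (1.35), Grik3 (0.87) and Garnl3 (0.67) were higher too. Thsd7b (1.44), Lsp1 (1.39), Col5a1 (1.38) and Gadd45a (1.36) were among the 15 largest rises here.

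Upper-layer markers were lower for 4 of 8, with Lamp5 at −1.09, Rorb at −1.05 and Cux2 at −0.90. Fstl4, which encodes a follistatin-like protein, was at 2.18, 0, 1.26 and 1.35 CPM in deep-layer spots and 5.99, 6.86, 5.87 and 7.20 CPM in the others (log2 fold change −2.42, edgeR adjusted p = 0.00357). Interneuron genes were lower for 5 of 10, and Pvalb was at 75.5, 69.2, 84.5 and 147 CPM against 157, 221, 318 and 295, without overlap (−1.41, edgeR adjusted p = 1.98e-07). Slc17a6, the vesicular glutamate transporter gene of subcortical neurons, was lower (−1.25). Of the 10 oligodendrocyte genes 0 were called (median 0.13), and of the 10 striatal genes 1 was lower (median −0.33). Without section 1 or without section 4, 0 of the striatal genes were called, and without section 2, 7 were lower. Without the striatal-score spots, which were picked by these same 10 genes, 1 was higher and 0 lower (median 0.14).

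**Figure D3:**
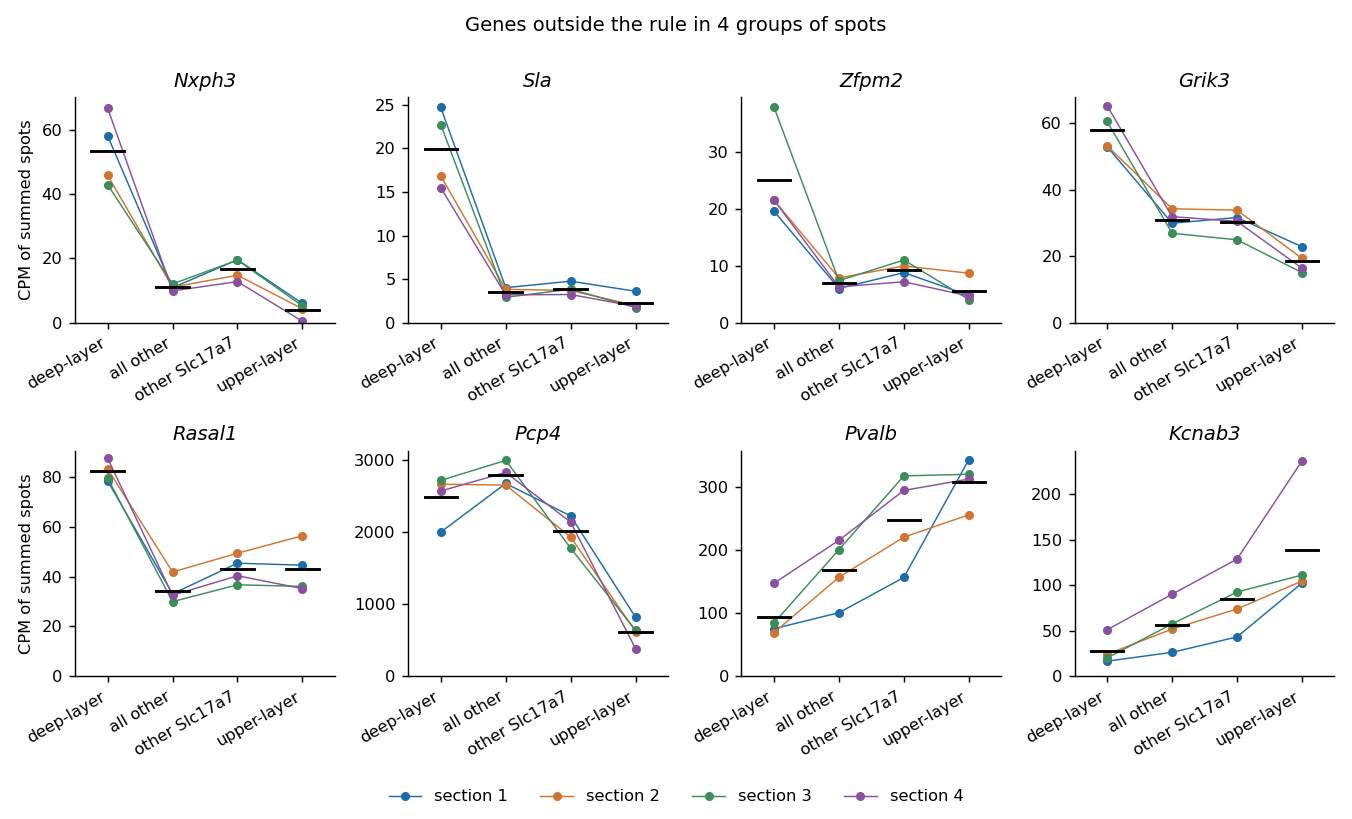
CPM (vertical axes) of 8 genes outside the rule in deep-layer spots, all other spots, other spots with Slc17a7 and upper-layer spots of each section (points, joined within a section), with black bars for the mean of the 4 sections. Nxph3, Sla, Zfpm2, Grik3 and Rasal1 are highest in deep-layer spots in every section, Pcp4 is lowest in upper-layer spots, and Pvalb and Kcnab3 are lowest in deep-layer spots.

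A contrast among cortical spots was made with upper-layer spots, which met the same kind of rule with 8 markers of layers 2 to 4 (Cux2, Cux1, Rasgrf2, Lamp5, Otof, Stard8, Rorb and Nectin3). There were 36, 188, 114 and 106 such spots in sections 1 to 4. A further 6 spots met both rules and stayed with the deep-layer spots. The 17 genes of both rules were left out. Of 10271 genes, 618 were higher in deep-layer spots and 667 lower, 12.5% in all (6.02% higher and 6.49% lower). Without section 4 the counts were 378 and 478. These groups also hold the deep-layer spots of the comparisons above, and section 1 had the fewest upper-layer spots.

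Nxph3 showed the largest rise. It was at 6.03, 4.35, 5.24 and 0.469 CPM in upper-layer spots against 58.1, 45.8, 42.9 and 66.7 in deep-layer spots (log2 fold change 3.75, standard error 0.27, edgeR adjusted p = 3.26e-11). Sla was at 3.62, 1.98, 1.75 and 1.88 CPM in upper-layer spots (3.09, standard error 0.33, edgeR adjusted p = 3.82e-08), and Arhgap25 at 2.41, 2.97, 1.75 and 1.88 CPM (2.97, edgeR adjusted p = 5.42e-08). None of the 3 overlapped with deep-layer spots. Of 7 layer 6 corticothalamic genes tested, 6 were higher (median 1.71, against 0.013 over all genes tested), now including Syt6, a synaptotagmin gene, at 29.0, 36.5, 22.7 and 20.9 CPM against 2.41, 10.7, 13.4 and 5.16 (1.71, edgeR adjusted p = 1.15e-05). The 2 layer 6b genes tested, Ccn2 (2.39) and Cplx3 (1.13), were both higher.

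Layer 5 genes were higher for 3 of 6 tested and lower for 0. Pcp4 was at 820, 623, 640 and 383 CPM in upper-layer spots, well below the 2004 to 2723 CPM of deep-layer spots (log2 fold change 2.03, standard error 0.13, edgeR adjusted p = 3.54e-12). Bcl11b, which drives subcortical projection identity, was at 82.8, 116, 63.1 and 54.5 CPM against 37.4, 34.2, 19.8 and 15.96 (1.61, edgeR adjusted p = 9.12e-10), and Etv1 differed by 0.63. None of them overlapped. Other large rises were Trbc2 (2.38), Ighm, annotated as an immunoglobulin heavy constant gene, the somatostatin receptor gene Sstr2, the stress-response gene Gadd45a and the small GTPase gene Rab26 (2.07).

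The largest fall was Fstl4, at 10.8, 13.1, 8.15 and 13.6 CPM in upper-layer spots (log2 fold change −3.22, standard error 0.47, edgeR adjusted p = 8.82e-06). Ddit4l, an inhibitor of mTOR signalling, was at 10.9, 15.9, 11.4 and 8.08 CPM in deep-layer spots and 47.0, 55.8, 45.4 and 103 CPM in upper-layer spots (−2.54, edgeR adjusted p = 6.09e-10). Rspo1, a Wnt pathway agonist gene, was at 2.90, 8.41, 5.05 and 7.41 CPM against 25.3, 22.8, 32.0 and 50.2 (−2.48, edgeR adjusted p = 4.37e-08). All 3 separated the groups in every section. Among the transcription factor genes, 9 of 28 were higher and 7 lower. Bhlhe22 (−1.69), Pou3f2 (−1.44) and Lhx2 (−1.38), known from upper-layer neurons, were the lowest, and Nr4a2 (1.97) was among the highest.

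All 10 oligodendrocyte genes were higher in deep-layer than in upper-layer spots (median log2 fold change 1.20, range 0.78 to 1.35), and all 10 were called without any 1 section. Their summed level was 2715, 2850, 3386 and 3317 CPM in deep-layer spots and 1453, 1293, 1418 and 1344 CPM in upper-layer spots. Mbp, the myelin basic protein gene, was at 1285, 1311, 1586 and 1438 CPM against 646, 622, 692 and 598 (log2 fold change 1.10, standard error 0.078, edgeR adjusted p = 1.97e-11). Mal, a gene of a myelin membrane protein, was alike (1.35). The groups did not overlap for any of the 10 genes, and the share of such genes among all tested is not given here. Of 9 astrocyte genes tested, 4 were lower and 1, Gfap, higher. Of 8 microglial genes, 0 were called. Mitochondrially encoded genes were lower for 9 of 13 (median −0.31), with 0 called without section 1 or 3 and 2 without section 4.

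Interneuron genes were lower for 5 of 9 tested. Pvalb was at 343, 256, 320 and 313 CPM in upper-layer spots, above the highest deep-layer value of 147 (log2 fold change −1.74, standard error 0.12, edgeR adjusted p = 1.81e-11), and Vip was at 80.6, 33.7, 18.9 and 31.0 CPM in deep-layer spots and 101, 104, 212 and 137 in upper-layer spots (−1.74, edgeR adjusted p = 6.80e-07). Striatal genes were higher for 9 of 10 (median 1.02), with Penk at 265, 298, 273 and 112 CPM in upper-layer spots against 420, 1121, 439 and 152 (0.99, edgeR adjusted p = 1.29e-05). Penk was higher in each section but overlapped between groups, because section 4 was low in both. The summed level of the 10 genes was 936, 941, 773 and 457 CPM in upper-layer spots. Without section 2, 4 of the 10 were called higher. With spots of striatal score 3 or more left out, a score computed from these same 10 genes, 5 were (median 0.49). Drd1, the dopamine D1 receptor gene, had a log2 fold change of 1.54. Without the striatal-score spots Drd1 was at 1.11 and Penk at 0.44, both called.

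Potassium channel genes were lower for 18 of 42 and higher for 6, against 6.49% and 6.02% of all genes tested. Kcnab3, an auxiliary beta subunit gene, was at 16.7, 24.3, 20.2 and 51.2 CPM in deep-layer spots and 102, 105, 111 and 237 CPM in upper-layer spots (log2 fold change −2.33, standard error 0.13, edgeR adjusted p = 3.44e-13). Section 4 was the highest in both groups, and the groups did not overlap. Kcns1 (−1.50), a silent subunit gene, was also lower, and Kcnip3 (0.98), a channel-interacting protein gene, was higher. Without 1 section, 12 to 16 were lower and 4 to 6 higher, except without section 2, where 3 were higher.

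Of 14 ionotropic glutamate receptor genes tested, 2 were higher, 4 lower and 8 not called, and without section 1, 2 or 4 the lower ones numbered 2, 1 and 2. Grik3 was at 53.0, 53.3, 60.6 and 65.3 CPM in deep-layer spots and 22.9, 19.4, 15.1 and 16.4 CPM in upper-layer spots (log2 fold change 1.65, standard error 0.16, edgeR adjusted p = 1.12e-08), whereas the NMDA receptor subunit gene Grin2a was lower (−0.65). Of 11 GABA-A receptor subunit genes tested, Gabra5, of extrasynaptic receptors, was higher (0.99, edgeR adjusted p = 4.16e-05) and 4 were lower. Of 6 metabotropic glutamate receptor genes tested, 1 was higher and 1, Grm2 (−1.50), lower. Of 19 neuromodulator receptor genes tested, 5 were higher, among them Chrna4 (1.33), and 1 lower. Of 36 guidance genes tested, 9 were higher, among them Sema5a (2.13), Sema5b (1.92), Efnb3 (1.36) and Sema3e (1.25), and 8 lower, among them Robo3 (−1.89). Rasal1 was at 44.6, 56.4, 36.1 and 35.2 CPM in upper-layer spots (0.91, edgeR adjusted p = 6.36e-06), below every deep-layer value.

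**Figure D4:**
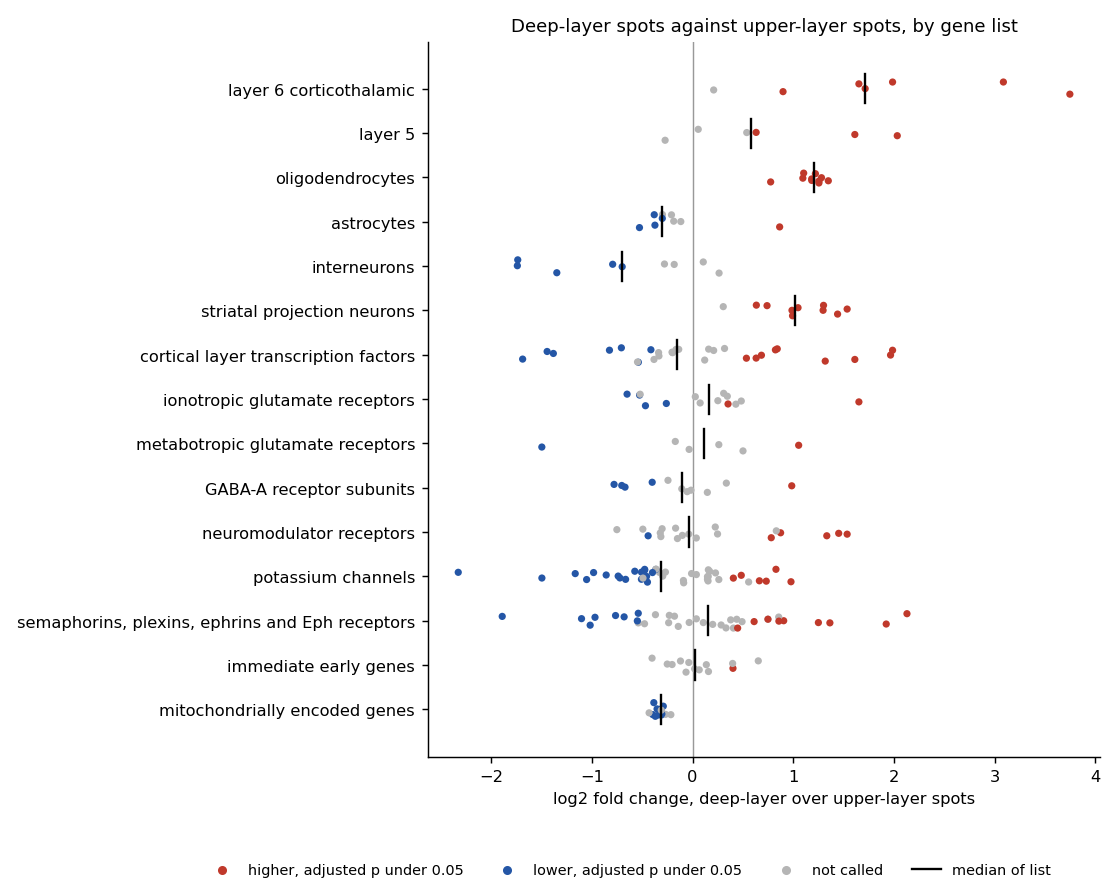
Log2 fold change of deep-layer over upper-layer spots (horizontal axis) for every tested gene of 15 fixed lists, 1 point a gene, coloured by the edgeR call, with a black bar at the median of each list. The 10 oligodendrocyte genes lie between 0.78 and 1.35, and 18 potassium channel genes were called lower against 6 higher.

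The deep-layer spots were not uniform. Of the 4 layer 6b markers Ccn2, Nxph4, Cplx3 and Moxd1, 134 of the 282 spots held none, 88 held 1, 40 held 2, 18 held 3 and 2 held all 4. Spots with at least 2 of them numbered 18, 8, 11 and 23 in sections 1 to 4 and were compared with the other deep-layer spots of the same section. The 4 markers were left out with the rule genes. Of 7309 genes, 9 were higher and 3 lower, 0.164% in all (0.123% higher and 0.041% lower), with 464 genes at an unadjusted p under 0.05.

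Nxph3 was at 125, 179, 69.6 and 96.1 CPM in spots with layer 6b markers and at 37.2, 32.0, 37.7 and 56.7 CPM in the other deep-layer spots, without overlap (log2 fold change 1.39, standard error 0.21, edgeR adjusted p = 4.49e-06). Of 7 genes tested here from the layer 6 corticothalamic list, Nxph3 was the 1 called (median of the list 0.46). Adra2a, the alpha-2A adrenergic receptor gene, was at 54.8, 39.7, 31.0 and 48.1 CPM against 16.2, 13.4, 7.54 and 16.2, without overlap (1.68, standard error 0.33, edgeR adjusted p = 0.0022). It was called in 6 of 12 alternative settings, with edgeR or DESeq2 adjusted p-values up to 0.425. Tac1, the substance P precursor gene, which is also a striatal marker, was at 85.3, 109, 54.2 and 53.4 CPM against 195, 301, 85.9 and 65.7 (−0.98, edgeR adjusted p = 0.000975).

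Of 10 oligodendrocyte genes tested, 4 were higher and 0 lower in these spots (median log2 fold change 0.47), and of 9 astrocyte genes 1, Gfap, was higher (median 0.067). Without section 1, 0 of the oligodendrocyte genes were called, and without section 2, 1. Gfap, the astrocyte filament gene, was at 45.7, 79.4, 23.2 and 40.0 CPM against 12.4, 24.8, 18.1 and 9.004, with overlap through section 3 (log2 fold change 1.67, standard error 0.34, edgeR adjusted p = 0.00292). Of the oligodendrocyte genes, Mbp was at 1706, 2195, 1911 and 1546 CPM against 1153, 1219, 1523 and 1401 (0.45, edgeR adjusted p = 0.000108), and Mobp (0.47) and Cldn11 (0.70) were called too. Of 13 alternatives, Mbp was called in 9, Gfap and Tac1 in 7, Mobp in 5 and Cldn11 in 3. Mbp and Mobp did not overlap between groups. Their part in the other calls was not tested. Without section 2 the count fell to 3 higher and 0 lower genes and without section 1 to 3 and 1, and with at least 1 marker in place of 2 it was 1.

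**Figure D5:**
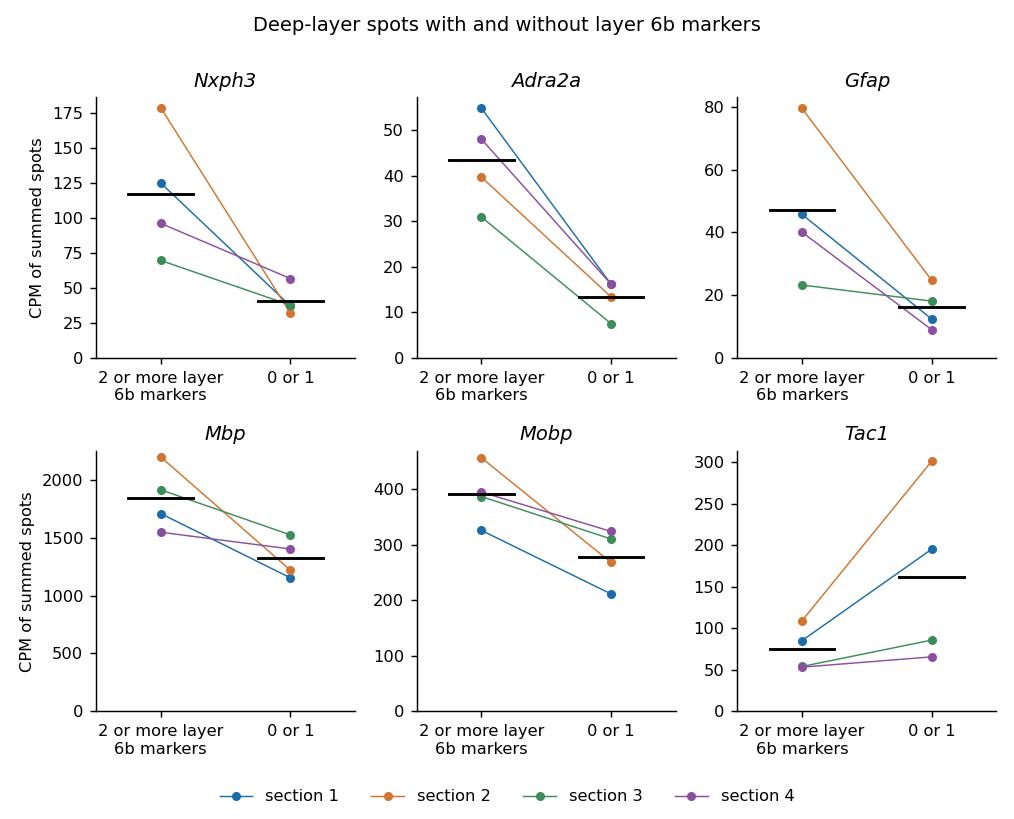
CPM (vertical axes) of 6 called genes in deep-layer spots with at least 2 layer 6b markers and in the other deep-layer spots of each section (points, joined within a section), with black bars for the mean of the 4 sections. The first 5 genes are higher in the spots with layer 6b markers in every section, and Tac1 is lower.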

How the data were processed

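Visium libraries of 4 Nf1+/- brain sections were used, all in 1 group. The values are counts of UMIs per gene and spot for 32285 genes, which the authors deposited as matrices of spots over tissue made with Space Ranger 1.3.1 on mm10, per the labels. Spots under 500 UMIs were left out (1 to 26 a section). No doublet caller was run, and spot positions were not used. UMIs were summed per section and spot group. Genes passed filterByExpr, sums were scaled by TMM, and edgeR 4.0.16 (R 4.3.3) fitted a quasi-likelihood model with the section as a block, with Benjamini-Hochberg adjustment over all genes tested. Sums of the same section deviated together from their group means (correlation 0.24 to 0.38 for deep-layer against other spots). The correlation was 0.25 to 0.38 against other Slc17a7 spots and 0.14 to 0.31 against upper-layer spots. It was weakest, at 0.066 to 0.21, between deep-layer spots with and without layer 6b markers. Alternatives included DESeq2 1.42.0, other scalings, each section left out, and other rules for the spots. The genes named are members of fixed lists, Nf1, and the 15 largest rises and falls (10 for layer 6b markers) among called genes with at least 100 UMIs and the same direction in 4 sections. Names starting with Gm or ending in Rik were left out. The spots, gene lists and tests were chosen with earlier results of these data known. Coordinates are from the RefSeq annotation of GRCm38.p6. The depth of each section limits the precision of its values. Some genes are not reported here.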

Additional observations from a re-analysis of the deposited data

Results flagged for a closer look

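For each named gene the log2 ratio between spot groups was compared over the 4 sections, and 15 of 225 ratios had 1 section far from the others by Dixon's criterion, where chance flags about 1 in 20, or 11.25 of 225.

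Between deep-layer and other spots, section 2 stood apart for Gad2 at −0.33 (the others −1.29 to −1.15), for Lhx2 at −1.26 and for Sebox at 3.09. Section 4 stood apart for Nr4a2 at 2.33 (the others 0.93 to 1.06) and for Tnmd at 2.94, section 3 for Syt6 at −0.87, and section 1 for Zic4 at −3.91, where deep-layer spots held 0 UMIs and the value depends on the 0.5 UMI added. Between deep-layer and other Slc17a7 spots, section 1 stood apart for Bhlhe22 at 0.34 (the others −1.36 to −1.12), section 2 for Neurod2 at 0.061 and section 4 for Myoc at −0.61. Between deep-layer and upper-layer spots, section 4 stood apart for Nxph3 at 6.57, where upper-layer spots held 1 UMI, for Sema5b at 3.42 and for Ddit4l at −3.62, section 2 for Penk at 1.91 and section 1 for Bcl11b at 1.13. The 15 of 70 deep-layer spots of section 2 with a high striatal score stand beside its ratios for Gad2 and Penk, and their part was not tested.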

How the results depend on the processing

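All results rest on 4 sections of 1 genotype, on spots that mix cells, and on a rule that reads the same counts as the tests. Deep-layer spots held few UMIs of many genes, which widens the errors of scarce genes. Nxph3, Sla, Prss35, Rasal1, Zfpm2, Arhgap25, Trbc2 and Grik3 were called against other spots in 16 of 16 alternatives.

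Without the section as a replicate block, the genes called against other spots numbered 643 (1469 with it), against other Slc17a7 spots 127 (545), against upper-layer spots 811 (1285), and between deep-layer spots with and without layer 6b markers 1 (12). In the same order of comparisons DESeq2 called 951, 283, 504 and 4. A score of at least 5 gave 767, 327 and 564 genes in the first 3 comparisons. The rule with 6 genes gave 2673 and 1037 in the first 2, and the rule on spots thinned to 5000 UMIs gave 979 in the first. For layer 6b markers, no filter on low counts gave 19 and at least 1 marker gave 1.

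With 1 section left out, the counts ranged from 798 (without section 1) to 1686 (without section 2) against other spots, with 819 without section 3. They ranged from 277 (without section 3) to 520 against other Slc17a7 spots, from 856 (without section 4) to 1120 against upper-layer spots, and from 3 (without section 2) to 15 for layer 6b markers, with 4 without section 1. The cause of these shifts was not tested, beyond the smaller number of sections.

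Of the named genes, some turned sign against other spots. With a score of at least 5, Bcl11b was at 0.069, Syt6 at 0.076 and Nf1 at −0.48. With spots of striatal score 3 or more left out, an alternative chosen after seeing the data, Bcl11b was at 0.63, Pcp4 at 0.57 and Syt6 at 0.39. On spots thinned to 5000 UMIs, Epha3 was at −0.31, Lmo3 at −0.014 and P2ry12 at 0.0019. With comparison spots matched on total UMIs Nf1 was at −0.15, and with 1 section left out it ranged from −0.085 (without section 4) to 0.23. For layer 6b markers, Mbp was at −0.031 with at least 1 marker. No other named gene turned sign under any alternative run, and the alternatives under which most called values lost the call were the fit without the block (80) and a score of at least 5 (58).

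Leaving out spots with 3 detected striatal markers was not run, because 0 deep-layer spots remained in section 1. Matching on total UMIs kept all upper-layer spots and so changed nothing there.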
